A study of Oryctolagus cuniculus with 12 samples.

Results

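The genes of macrophages, dendritic cells and granulocytes were followed in rabbit ear skin and in hypertrophic scars of the rabbit ear, by bulk RNA-seq of 12 samples. A list of 45 gene symbols was matched to the symbols of the deposited table, keeping the row of highest mean where a symbol repeated. The table held 38 of the 45, and 7 symbols (TREM2, LAPTM5, SPI1, F13A1, CCR2, CD1B and NCF1) had no match and were not analysed here. Of the 38 genes, 36 had a mean of 1 FPKM or more across the 12 samples and were tested among 13287 genes, out of 29587 listed. FPKM divides the fragments of a gene by its length and by the library size, so levels can be compared between genes. The 38 genes comprised 24 of macrophages, 3 of antigen-presenting cells, 8 of neutrophils and of the phagocyte oxidase, and 3 of mast cells.

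Macrophages enter a wound as blood monocytes or arise from cells resident in the skin, clear debris through scavenger receptors, and release enzymes and signals that act on fibroblasts and collagen. Dendritic cells carry antigen on MHC class II molecules and show it to T cells. Neutrophils are short-lived granulocytes that arrive first in a wound, and mast cells are long-lived granule-filled cells of the dermis that carry the high-affinity IgE receptor. Many genes are shared among these cells, and several of those listed, such as CTSK, SPP1, GPNMB and STAB1, are also used by cells outside the myeloid lineage.

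All animals were wild-type (WT) female rabbits, 10 to 12 weeks old when obtained, with 3 rabbits in each of 4 groups. Normal skin (NS) came from rabbits that were neither wounded nor treated. Hypertrophic scar (HS) followed removal of epidermis, dermis and perichondrium from round wounds on the ventral side of the ear, and was left untreated. In the drug-loaded MNs group each scar received 1 microneedle patch whose tips carried a derivative of 5-fluorouracil (5-Fu) bound through a peptide, and in the 5-Fu injection group each scar was injected with 120 μg of 5-Fu in a volume of 0.1 mL, in both cases on days 22, 29 and 36 after wounding. The scar samples were harvested on day 43, which was 1 week after the third treatment. Patches without drug are not among these samples, so the patch and its drug cannot be told apart. The tissue was taken at full thickness and holds epidermis, dermis, cartilage and blood together. The sources used here do not give how many scars entered a sample.

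Each sample had 10521472 to 14043667 reads on genes, counted back from the FPKM values, and an FPKM of 1 on a gene of 1 kb stood for 10.3 to 13 reads. Keratinocyte, fibroblast, endothelial, melanocyte and cartilage markers were present in every group. The library size behind the FPKM exceeded the reads on genes by a factor of 1.12 to 1.2 in NS and was 0.873 to 0.932 of them in HS. Rescaling to the reads on genes gave all genes together a median of -0.33 on the log2 scale in HS versus NS, in place of -0.01, so fold changes are relative to the deposited scaling. NS replicate 2 stood apart in leukocyte genes. The 5 pan-leukocyte markers found, of 8 listed, summed to 320 FPKM in it, against 162 and 109 FPKM in the other NS samples, 103 to 126 in HS, 122 to 138 after drug-loaded MNs and 224 to 330 after 5-Fu injection. Counts below are given with and without that sample where it matters. It was singled out by leukocyte genes, so leaving it out favours higher counts of such genes above NS. The tissue was measured in bulk, so fewer cells of a type and less RNA per cell cannot be told apart.

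**Figure D1:**
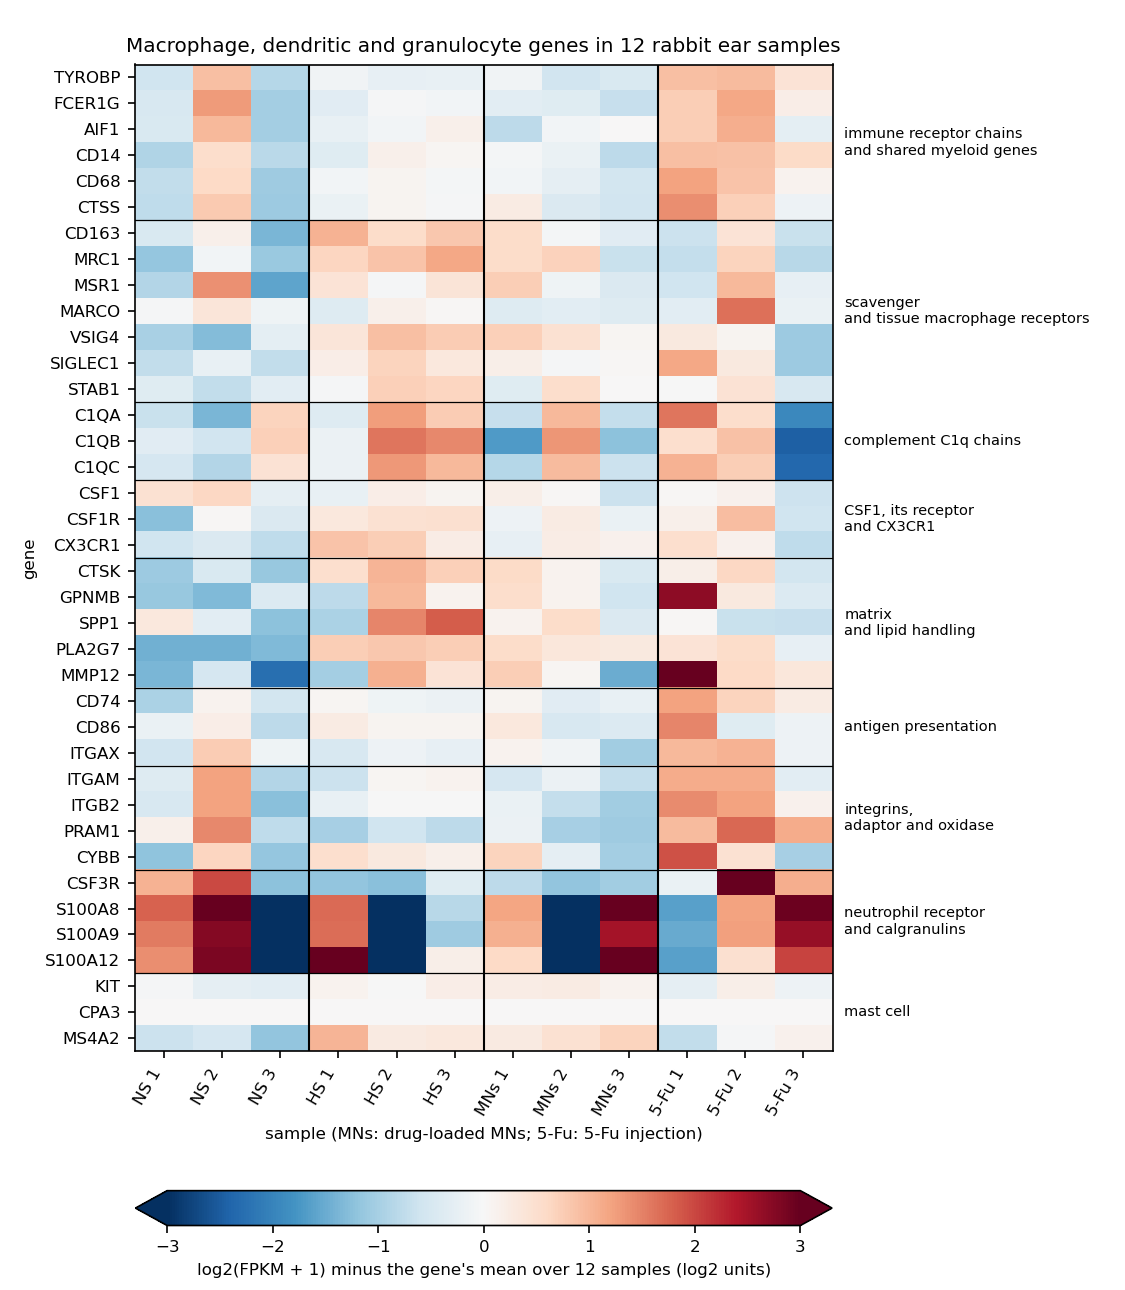
Level of each of the 38 genes in each of the 12 samples, as log2(FPKM + 1) minus the mean of that gene over all samples (colour, log2 units, limited to -3 and 3), with genes in rows grouped by role and samples in columns by group. PLA2G7 is low in the 3 NS samples and higher in the other 9, and S100A8, S100A9 and S100A12 vary within every group. The shared myeloid genes are high in NS 2 and in the first and second 5-Fu injection samples, and lower in the third.

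The first comparison asked which of these genes differ between untreated scar and normal skin. PLA2G7, CTSK, VSIG4, MS4A2 and CX3CR1 rose in HS, with log2 fold changes of 1.21 to 2.16, and none of the 36 fell. A gene was called at a limma adjusted p under 0.05 with an absolute log2 fold change above 1, on the log2(FPKM + 1) scale, which understates the change of low genes. The 5 called genes were 5 of 36, where 3.53% of all genes tested were called higher. In 11 of the 36 genes (30.6%) every HS sample lay above every NS sample, against 18.0% of all genes, and in 0 did every HS sample lie below every NS sample, against 15.3%. Without NS replicate 2 the 11 became 23 genes (63.9%, against 22.8% of all genes) and without HS replicate 1 they became 17 (47.2%, against 23.9%). Without NS replicate 3 they became 15 (41.7%, against 24.0%), and 4 genes lay below (11.1%, against 22.6%). The 11 stayed 11 (30.6%) without NS replicate 1, HS replicate 2 or HS replicate 3, against 20.9%, 21.9% and 20.6% of all genes. Without NS replicate 1 or without HS replicate 2, 1 gene lay below (2.78%, against 18.8% and 19.0%). The median log2 fold change of the 36 was 0.50, against -0.01 for all genes. By class, the median was 1.00 for the 23 macrophage genes, 0.38 for the 3 antigen-presenting genes, -0.56 for the 8 neutrophil and oxidase genes and 0.80 for the 2 mast cell genes.

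PLA2G7 encodes a secreted phospholipase that hydrolyses platelet-activating factor and oxidised lipids and is made by macrophages. It is listed as ENSOCUG00000000763 on chromosome 12, from 36055494 to 36075754. Its FPKM was 14.1, 14.1 and 15.4 in NS and 67.6, 71.1 and 67.1 in HS. It was 58.6, 50.8 and 49.2 after drug-loaded MNs, and 53.2, 59.2 and 33.6 after 5-Fu injection. Every scar sample, treated or not, lay above the NS samples, and the HS samples lay above all the others. In HS versus NS the log2 fold change was 2.16 (SE 0.18, limma adjusted p = 0.000658, 95% interval 1.76 to 2.57). Its reads ranged from 334 to 1522 per sample, and it kept its call under all 8 alternatives with every sample and in all 6 fits that left out a sample.

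CTSK encodes cathepsin K, a cysteine protease that cleaves collagen and is made by osteoclasts, by macrophages and by fibroblasts. It was the most abundant macrophage gene of the list (ENSOCUG00000011090, chromosome 13, from 41346878 to 41360274). Its FPKM was 217, 337 and 213 in NS and 658, 953 and 767 in HS. After drug-loaded MNs it was 700, 500 and 337, and after 5-Fu injection 531, 714 and 316. The HS samples lay above the NS samples, while the treated samples spread from within the NS range to within the HS range. In HS versus NS the log2 fold change was 1.65 (SE 0.34, limma adjusted p = 0.0156). The call was lost without NS replicate 1 or without HS replicate 2, where the adjusted p reached 0.0666. Fibroblast markers moved with it. The 8 found, of 9 listed, summed to 2628 to 3694 FPKM in NS, 37674 to 49447 in HS, 19212 to 27606 after drug-loaded MNs and 5387 to 27075 after 5-Fu injection, and their part in the CTSK result was not tested.

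The other genes of matrix and lipid handling did not pass the test. SPP1, which encodes the matrix protein osteopontin, had a log2 fold change of 1.18 in HS versus NS (SE 0.63, limma adjusted p = 0.295), and GPNMB, a membrane glycoprotein of lipid-loaded macrophages and pigment cells, had 1.05 (SE 0.69, adjusted p = 0.405). MMP12, the macrophage elastase, had 1.53 (SE 0.87, adjusted p = 0.327). HS replicate 1 was the lowest HS sample for all 3, with 16.0 FPKM of SPP1 against 88.7 and 113 in the other HS samples. Without that sample SPP1 was called.

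Scavenger and tissue macrophage receptors were higher in HS by a median log2 fold change of 1.16 over the 6 tested. In 5 of the 6 every HS sample lay above every NS sample, against 18.0% of all genes. The grouping by role was made after the values had been seen and carries no test. VSIG4, a complement receptor of resident macrophages (ENSOCUG00000004172, chromosome X, from 44541970 to 44569207), was the called gene among them. Its FPKM was 3.13, 2.26 and 5.64 in NS and 9.40, 14.2 and 12.6 in HS. It was 12.3, 10.1 and 7.46 after drug-loaded MNs, and 8.91, 7.53 and 2.80 after 5-Fu injection. The HS and the drug-loaded MNs samples lay above the NS samples, and the 5-Fu injection samples overlapped with NS. In HS versus NS the log2 fold change was 1.53 (SE 0.37, limma adjusted p = 0.0289). It lost its call in 5 of the 6 fits without a sample, keeping it without NS replicate 3, and in 2 of the 8 alternatives.

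CD163, the receptor for haemoglobin bound to haptoglobin, and MRC1, the mannose receptor, missed the threshold narrowly. CD163 ranged over 2.53 to 9.20 FPKM in NS and 12.4 to 17.9 in HS (log2 fold change 1.36, SE 0.40, limma adjusted p = 0.0645), and MRC1 over 3.15 to 7.78 and 13.6 to 19.6 (1.68, SE 0.46, adjusted p = 0.0529). Both were called without NS replicate 2. SIGLEC1, a sialic acid binding receptor, and STAB1, a receptor for modified lipoproteins that endothelial cells also carry, had log2 fold changes of 0.96 and 0.92 (adjusted p of 0.209 and 0.0851). MSR1, the class A scavenger receptor, overlapped between the groups because NS ranged from 0.200 to 8.32 FPKM, and MARCO was below the minimum, with 0 to 3.13 FPKM over all samples.

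The 3 chains of complement C1q, which macrophages of tissues secrete and which tag debris for uptake, had log2 fold changes of 1.00 (C1QA), 1.02 (C1QB) and 1.02 (C1QC) in HS versus NS. None passed the test (limma adjusted p of 0.523, 0.558 and 0.499), and HS and NS overlapped in each. The spread within groups was wide. C1QC was 48.9, 138 and 111 FPKM in HS and 39.0, 29.7 and 75.3 in NS. C1QA and C1QB also had their lowest HS value in replicate 1 and their highest NS value in replicate 3.

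CSF1 and CSF1R are the ligand and the receptor that keep macrophages alive, and CX3CR1 is the receptor of the chemokine CX3CL1 on monocytes and macrophages. CX3CR1 (ENSOCUG00000027509, chromosome 9, from 4412363 to 4413433) was low throughout, with 6 to 41 reads per sample. Its FPKM was 0.647, 0.861 and 0.477 in NS and 3.54, 3.20 and 1.90 in HS. It was 1.09, 1.93 and 1.73 after drug-loaded MNs, and 2.54, 1.72 and 0.464 after 5-Fu injection. The HS samples lay above the NS samples, and the lowest 5-Fu injection sample lay below all NS samples. In HS versus NS the log2 fold change was 1.21 (SE 0.32, limma adjusted p = 0.0440). The mean of NS was under the minimum of 1 FPKM at 0.662, and the call was lost in each of the 6 fits without a sample, with an adjusted p up to 0.141. It was also lost in 4 of the 8 alternatives with every sample (pseudocount of 0.1, no filter, rescaling to the same total and limma voom), with an adjusted p up to 0.0675. Its ligand gene CX3CL1 fell in HS, with 13.9, 15.6 and 21.0 FPKM in NS and 3.65, 6.05 and 6.76 in HS (log2 fold change -1.47, SE 0.27, adjusted p = 0.00884). CSF1R ranged over 12.1 to 30.6 FPKM in NS and 37.9 to 42.2 in HS, a log2 fold change of 0.97 (SE 0.37, adjusted p = 0.141), and CSF1 had -0.25 (SE 0.29, adjusted p = 0.646).

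**Figure D2:**
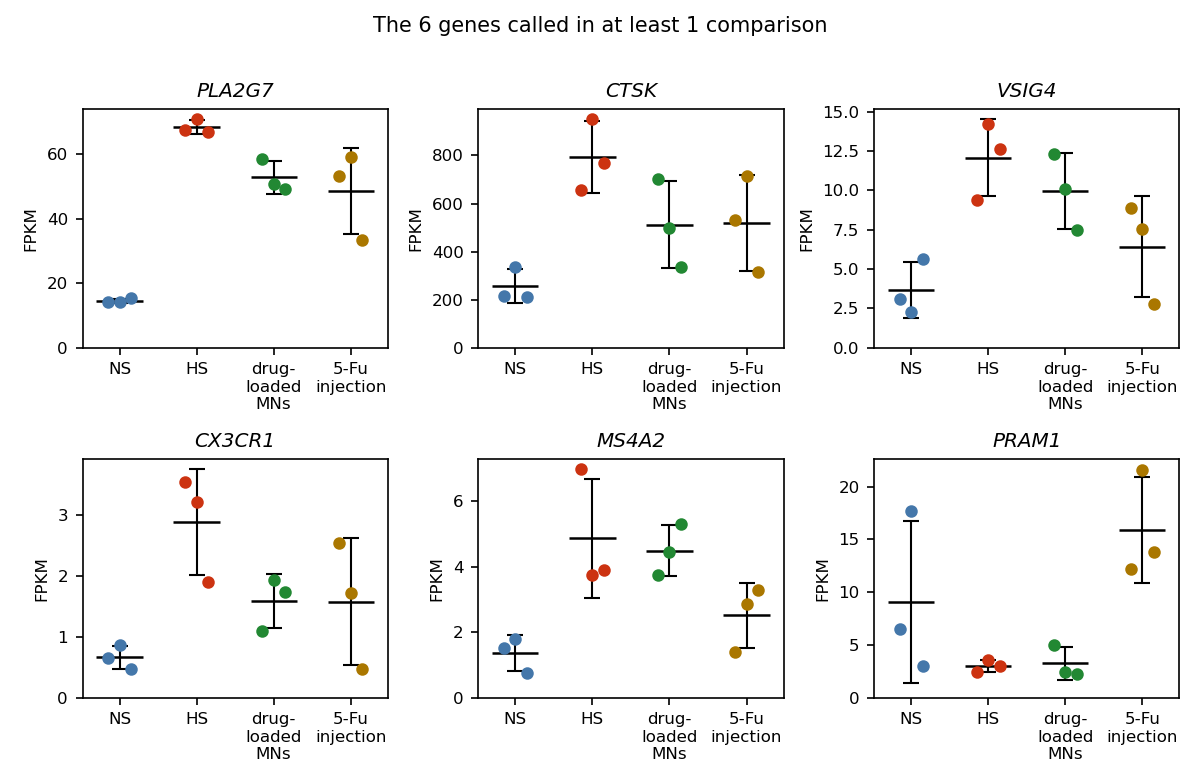
FPKM (vertical axis) of the 6 genes called in at least 1 comparison, in the 4 groups, with a point per sample, the mean as a line and the SD as bars (n = 3 per group). PLA2G7, CTSK, VSIG4, CX3CR1 and MS4A2 have every HS point above every NS point, and PRAM1 has every 5-Fu injection point above every HS point.

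TYROBP and FCER1G, the most abundant macrophage genes of the list after CTSK, did not pass the test in HS versus NS. They encode the signalling chains that many receptors of myeloid cells share. The FPKM of TYROBP was 246, 695 and 207 in NS, 344, 312 and 321 in HS, 344, 251 and 273 after drug-loaded MNs, and 703, 725 and 494 after 5-Fu injection. NS replicate 2 was as high as the 5-Fu injection samples, and the other NS samples lay below HS. The FPKM of FCER1G was 143, 484 and 98.1 in NS, 158, 196 and 188 in HS, 161, 156 and 123 after drug-loaded MNs, and 336, 446 and 229 after 5-Fu injection. The order of the samples within NS was the same as for TYROBP, and NS again overlapped with HS. The log2 fold changes in HS versus NS were -0.01 for TYROBP (SE 0.37, 95% interval -0.83 to 0.80) and -0.08 for FCER1G (SE 0.47, interval -1.11 to 0.96), with limma adjusted p of 0.989 and 0.944. With AIF1, CD14, CD68 and CTSS, genes for a cytoskeletal protein, the lipopolysaccharide co-receptor, a lysosomal protein and cathepsin S, the 6 shared myeloid genes had a median of 0.21 and 0 of 6 were called. Rescaled to the reads on genes, that median turned to -0.15.

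The antigen-presenting genes showed the same overlap. CD74, the invariant chain that guides MHC class II molecules, was the most abundant of them, with 527, 1084 and 689 FPKM in NS and 1056, 923 and 892 in HS. Its log2 fold change was 0.38 (SE 0.30, limma adjusted p = 0.481). ITGAX, the integrin chain CD11c, had 1.47, 5.29 and 2.35 FPKM in NS and 1.63, 2.32 and 2.08 in HS. CD86, a co-stimulatory ligand for T cells, had 1.15, 1.84 and 0.423 FPKM in NS and 1.92, 1.59 and 1.58 in HS. The highest NS sample was replicate 2 in all 3 genes, and no HS group stood clear of it.

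The calgranulin genes varied widely between replicates of each group. S100A8 and S100A9 encode the calgranulins that form calprotectin, the main protein of the neutrophil cytosol, which keratinocytes under stress also make, and S100A12 encodes a related protein. The FPKM of S100A8 was 1723, 4433 and 14.7 in NS, and 1653, 32.6 and 282 in HS. It was 1152, 43.7 and 4021 after drug-loaded MNs, and 162, 1162 and 3865 after 5-Fu injection. The lowest and the highest sample of each group differed many fold, and all groups overlapped.

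S100A9 followed S100A8, with 1639, 3791 and 42.7 FPKM in NS, 1802, 36.6 and 269 in HS, 1167, 58.3 and 3163 after drug-loaded MNs, and 196, 1314 and 3456 after 5-Fu injection. S100A12 had 182, 491 and 1.55 FPKM in NS, 750, 2.29 and 76.7 in HS, 104, 2.57 and 1200 after drug-loaded MNs, and 21.2, 95.2 and 282 after 5-Fu injection. The sample that was highest for S100A8 in each group was also highest for S100A9 and S100A12. The log2 fold change of S100A8 in HS versus NS was -0.98 with an SE of 2.29 (limma adjusted p = 0.836), so its 95% interval ran from -6.01 to 4.06. CSF3R, the receptor of the granulocyte growth factor G-CSF, was 6.84, 14.0 and 0.622 FPKM in NS, and 0.676, 0.587 and 1.92 in HS. The NS samples high in S100A8 were high in CSF3R too, while HS replicate 1 and the third drug-loaded MNs sample had 1653 and 4021 FPKM of S100A8 beside 0.676 and 0.824 FPKM of CSF3R.

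**Figure D3:**
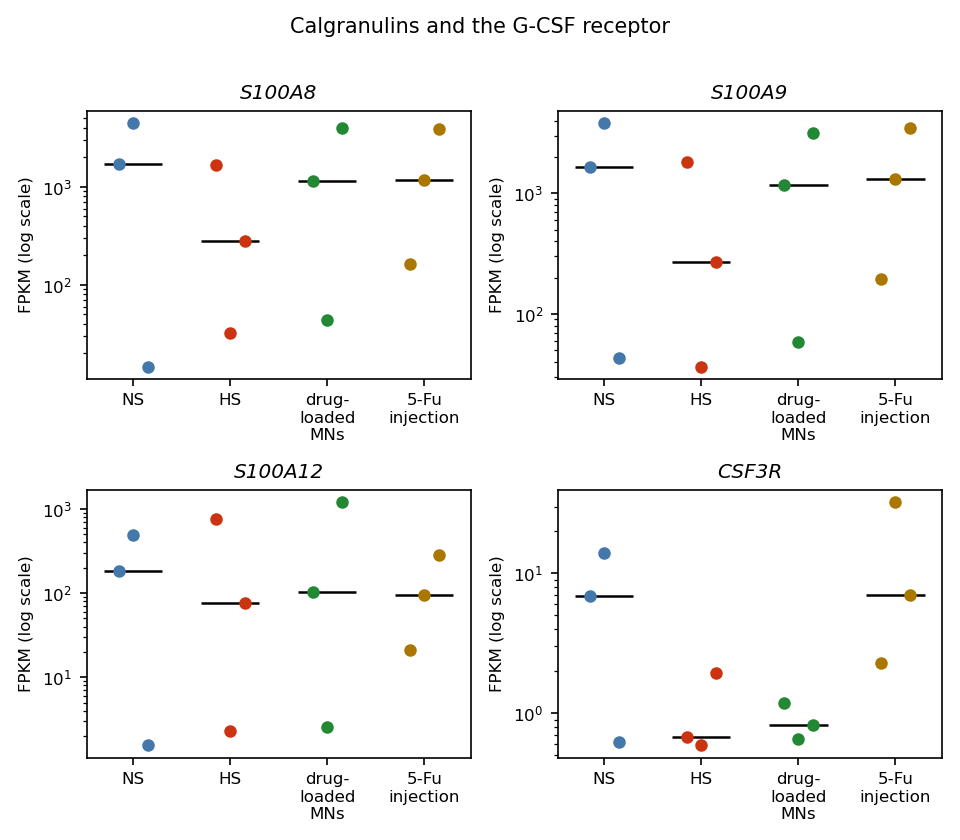
FPKM on a log scale (vertical axis) of S100A8, S100A9, S100A12 and CSF3R in the 4 groups, with a point per sample and the group median as a line. S100A8 spreads from 14.7 to 4433 FPKM within NS and from 32.6 to 1653 within HS, and CSF3R is at or below 1.92 FPKM in all HS and drug-loaded MNs samples.

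The integrins ITGAM (CD11b) and ITGB2 (CD18), which pair on phagocytes and bind complement fragments, had log2 fold changes of -0.14 and 0.10 in HS versus NS. CYBB, the catalytic subunit of the phagocyte oxidase, had 0.90 (SE 0.71, limma adjusted p = 0.488). PRAM1, an adaptor protein of neutrophils and other myeloid cells, was 6.55, 17.7 and 3.01 FPKM in NS and 2.43, 3.53 and 2.97 in HS (log2 fold change -1.07, SE 0.47, adjusted p = 0.197).

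Mast cells were marked by 2 genes with reads. MS4A2, the beta chain of the IgE receptor (ENSOCUG00000009077, chromosome 1, from 192840013 to 192846803), had 1.53, 1.80 and 0.738 FPKM in NS and 6.98, 3.74 and 3.89 in HS. It had 3.75, 4.44 and 5.30 FPKM after drug-loaded MNs, and 1.39, 2.86 and 3.30 after 5-Fu injection. HS and drug-loaded MNs lay above NS, and 5-Fu injection overlapped with NS and lay below HS. In HS versus NS the log2 fold change was 1.30 (SE 0.29, limma adjusted p = 0.0227), on 10 to 87 reads per sample, and the call was lost without NS replicate 1, NS replicate 3 or HS replicate 1 (adjusted p up to 0.0870). KIT, the receptor for stem cell factor, which melanocytes also carry, had 6.51, 5.31 and 5.10 FPKM in NS and 7.20, 6.63 and 7.71 in HS. It had 7.89, 8.13 and 7.23 FPKM after drug-loaded MNs, and 5.34, 7.64 and 5.83 after 5-Fu injection. Its HS samples lay just above NS, a log2 fold change of 0.30 (SE 0.16, adjusted p = 0.279) that turned negative when rescaled to the reads on genes. CPA3, a protease of mast cell granules, had 0 reads in each of the 12 samples, which allows up to 3 reads per sample. Whether reads of CPA3 could be assigned to its gene model in this table was not tested, so the 0 is not read as absence of the gene's RNA.

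Other genes of the same cells were read from further lists. Among 17 other macrophage genes tested, genes that rose in HS included HMOX1, which encodes the haem-degrading enzyme haem oxygenase (log2 fold change 1.37, limma adjusted p = 0.0271), and LGMN, which encodes the lysosomal protease legumain (1.33, adjusted p = 0.00188). The median of the 17 was 0.20. Of 6 other mast cell genes tested, 1 rose, against 3.53% of all genes called higher. This was CMA1, the mast cell protease chymase, with 1.86, 1.39 and 0.642 FPKM in NS and 18.6, 7.70 and 18.3 in HS (log2 fold change 2.73, SE 0.47, adjusted p = 0.00639). In 13 other antigen-presenting genes and 11 other neutrophil genes, 0 were called and the medians were -0.39 and -0.32. Of all 13287 genes, 469 were called higher and 196 lower, so a 0 in lists this short is near the background. The most abundant of these were HLA-DRA, the MHC class II alpha chain (0.52, adjusted p = 0.404), and C5AR1, the receptor for complement C5a (0.74, adjusted p = 0.487).

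The second comparison asked what drug-loaded MNs changed in the scar. None of the 36 genes was called against HS (limma), and limma voom on the reads called 0. An unadjusted p under 0.05 was reached by 0 of the 36, against 1183 of 13287 genes. Over all genes 0.00753% were called in either direction. All 23 macrophage genes had a lower mean than in HS, with log2 fold changes of -1.5 to -0.08 and a median of -0.37, against -0.02 for all genes. Rescaled to the reads on genes the count was 22 of 23, with GPNMB positive, and the median was -0.23. Among the macrophage genes the largest differences were those of C1QB (-1.5, SE 0.95, limma adjusted p = 0.676), C1QC (-0.88, SE 0.82) and CD163 (-0.76, SE 0.40, adjusted p = 0.621). S100A8 and S100A9 had 1.24 (SE 2.29, adjusted p = 0.910) and 1.2 (SE 1.99, adjusted p = 0.896). Markers of other cells differed as well. The 6 keratinocyte markers found, of 11 listed, summed to 3859 to 9161 FPKM after drug-loaded MNs and 1401 to 2029 in HS. In 5 of the 6 every drug-loaded MNs sample lay above HS, against 8.53% of all genes (median log2 fold change 1.46, 0 called). Of the 8 fibroblast markers 5 had every drug-loaded MNs sample below HS, against 10.3% of all genes (median -0.62, 0 called). Their part in the macrophage values was not tested.

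In 4 genes, CD163, CSF1R, PLA2G7 and SIGLEC1, every drug-loaded MNs sample lay below every HS sample. That was 11.1% of the 36, against 10.3% of all genes, a share near the background. Without HS replicate 1 the count was 16 genes (44.4%, against 17.3%), without the first drug-loaded MNs sample 14 (38.9%, against 17.9%) and without the second 9 (25.0%, against 15%). It was 4 without HS replicate 2 (11.1%, against 14.3%) and 5 without HS replicate 3 (13.9%, against 14.0%). Without the third drug-loaded MNs sample it was 4 (11.1%, against 16.6%). In 0 of the 36 did every drug-loaded MNs sample lie above HS, against 8.53%. CD163 was 12.3, 7.83 and 6.23 FPKM after drug-loaded MNs and 17.9, 12.4 and 15.1 in HS, so the nearest samples of the groups differed little. PLA2G7 had a log2 fold change of -0.37 (SE 0.18, adjusted p = 0.592) with a 95% interval of -0.77 to 0.03. The antigen-presenting genes overlapped with HS. After drug-loaded MNs CD74 was 1079, 802 and 868 FPKM, ITGAX was 2.98, 2.40 and 0.787, and CD86 was 2.07, 0.746 and 0.837. The antigen-presenting genes had a median of -0.07 and the neutrophil and oxidase genes of -0.02, and MS4A2 had -0.06 (95% interval -0.70 to 0.58).

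**Figure D4:**
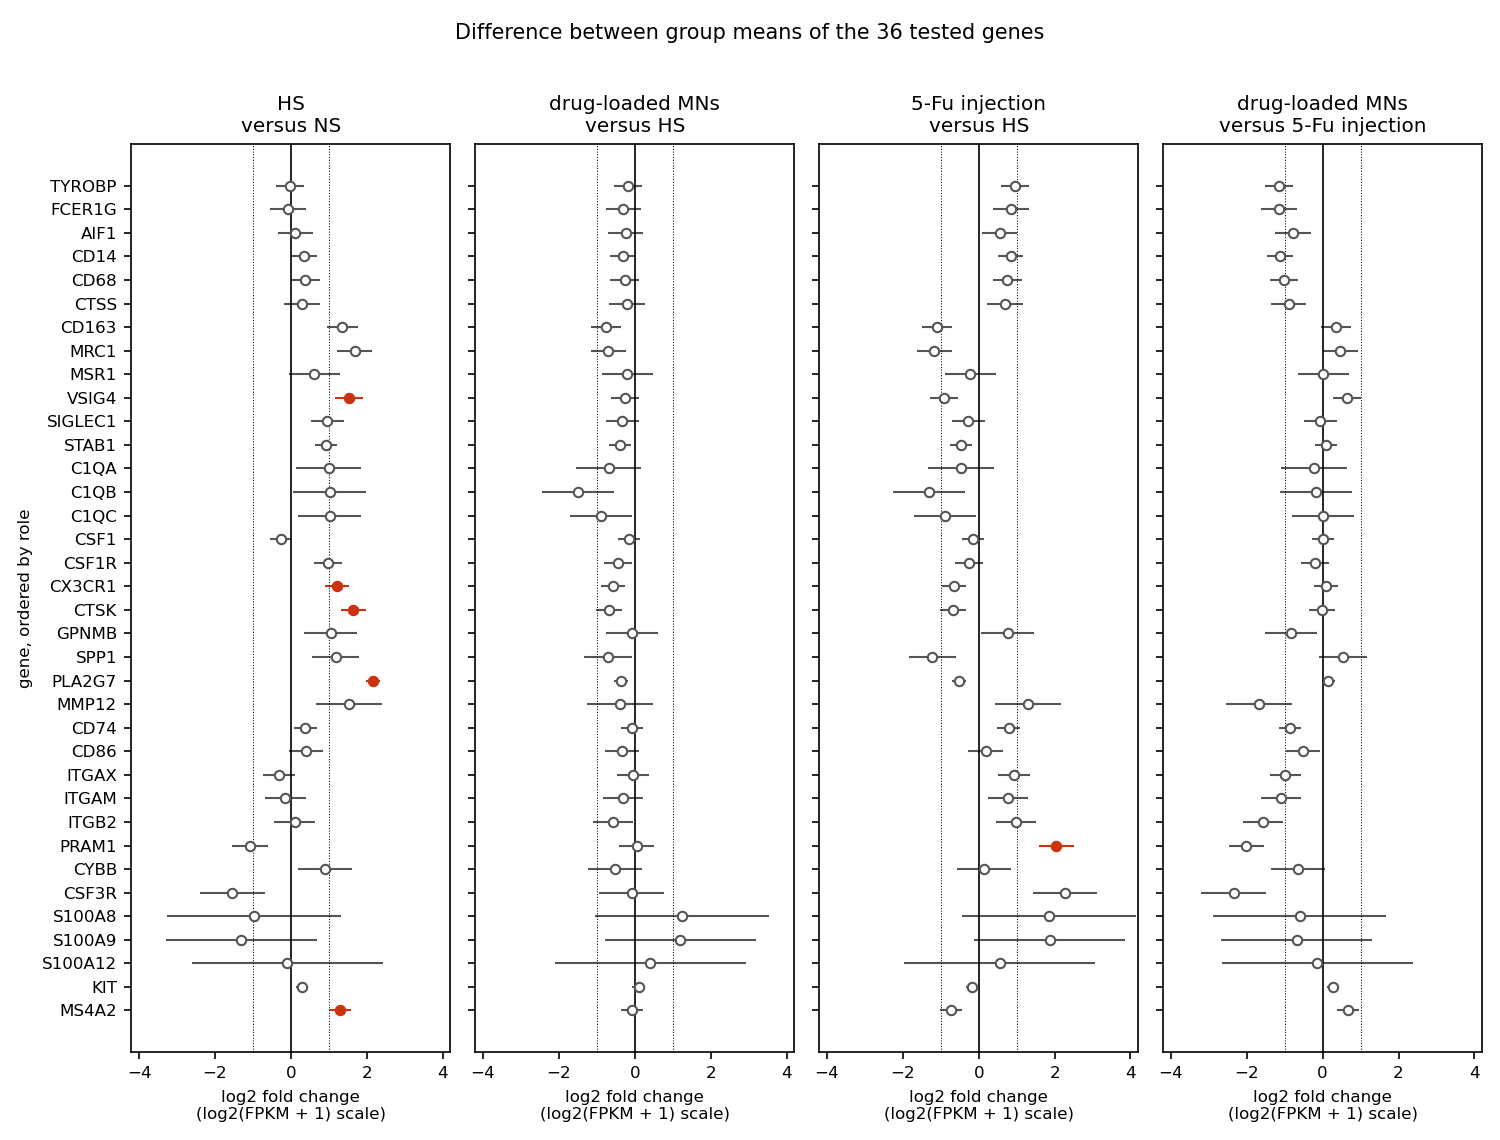
Log2 fold change on the log2(FPKM + 1) scale (horizontal axis) of the 36 tested genes (vertical axis, by role) in 4 comparisons, with bars of 1 SE, filled points for called genes and dotted lines at -1 and 1. In HS versus NS the scavenger receptors and the genes of matrix and lipid handling sit to the right of 0, in drug-loaded MNs versus HS all macrophage genes sit to the left, and in 5-Fu injection versus HS the shared myeloid genes sit to the right while the scavenger receptors sit to the left. Roles were grouped after the values had been seen.

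The third comparison asked the same of 5-Fu injection. PRAM1 rose against HS and the other 35 genes did not pass the test, so that 1 of 36 was called higher, against 0.512% of all genes. In 9 genes (25.0%, against 13.9% of all genes) every 5-Fu injection sample lay above every HS sample, and in 4 genes (11.1%, against 16.4%) every sample lay below. The latter count was 9 without HS replicate 1 (25.0%, against 23.5%) or without the second 5-Fu injection sample (25.0%, against 23.2%), and 6 without the first (16.7%, against 21.8%). The count of genes above HS stayed 9 (25.0%) when HS replicate 1 was dropped, against 20.4% of all genes. Dropping the first or the second 5-Fu injection sample also left 9, against 20.6% and 22.4%, so the excess over all genes narrowed. With HS replicate 2 or 3 dropped it was 9 as well, against 17.2% and 16.9%. Dropping the third 5-Fu injection sample gave 12 (33.3%, against 18.0%). An unadjusted p under 0.05 was reached by 10 of the 36, against 3449 of 13287 genes. The 36 did not move as a block, with a median of 0.16. The median was -0.27 for macrophage, 0.79 for antigen-presenting, 1.42 for neutrophil and oxidase, and -0.46 for mast cell genes. These fold changes share the HS samples with those of the preceding comparisons.

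PRAM1 (ENSOCUG00000000555, on an unplaced scaffold from 246380 to 252358) had 12.2, 21.6 and 13.8 FPKM after 5-Fu injection. It had 2.43, 3.53 and 2.97 FPKM in HS, and 5.03, 2.43 and 2.28 after drug-loaded MNs. The 5-Fu injection samples lay above both of those groups and overlapped with NS, where NS replicate 2 reached 17.7. The log2 fold change against HS was 2.05 (SE 0.47, limma adjusted p = 0.0387). The call was lost in each of the 6 fits that left out a sample, with adjusted p of 0.0504 to 0.117, and with the 2 groups alone in the fit, without the filter and with a replicate block.

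The shared myeloid genes were all higher on average after 5-Fu injection than in HS. TYROBP, FCER1G, CD14 and CD68 had every 5-Fu injection sample above every HS sample, as 13.9% of all genes had, and AIF1 and CTSS did not. For CD68 the gap was narrow, from 51.1 FPKM in the highest HS sample to 52.3 in the lowest 5-Fu injection sample. The 6 shared myeloid genes had a median log2 fold change of 0.79. TYROBP had 0.95 (SE 0.37, limma adjusted p = 0.139), and CD14, at 151, 149 and 119 FPKM against 61.8, 89.4 and 83.6 in HS, had 0.84 (SE 0.34, adjusted p = 0.154). CD74 was 2340, 1612 and 1204 FPKM after 5-Fu injection, above the 892 to 1056 of HS (0.79, SE 0.30, adjusted p = 0.126). ITGAX, at 6.26, 6.60 and 2.33 FPKM, and ITGB2, at 114, 98.8 and 45.7, also lay above HS in every sample. The highest HS samples were close, at 2.32 FPKM of ITGAX and 41.9 of ITGB2, and neither gene passed the test (limma adjusted p of 0.194 and 0.262). CD86 did not, with 5.78 FPKM in the first 5-Fu injection sample and 0.922 and 1.2 in the others. All 6 shared myeloid genes stayed positive under both rescalings, with medians of 0.60 and 0.93. The 6 were grouped after the values had been seen, so their shared direction carries no test.

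**Figure D5:**
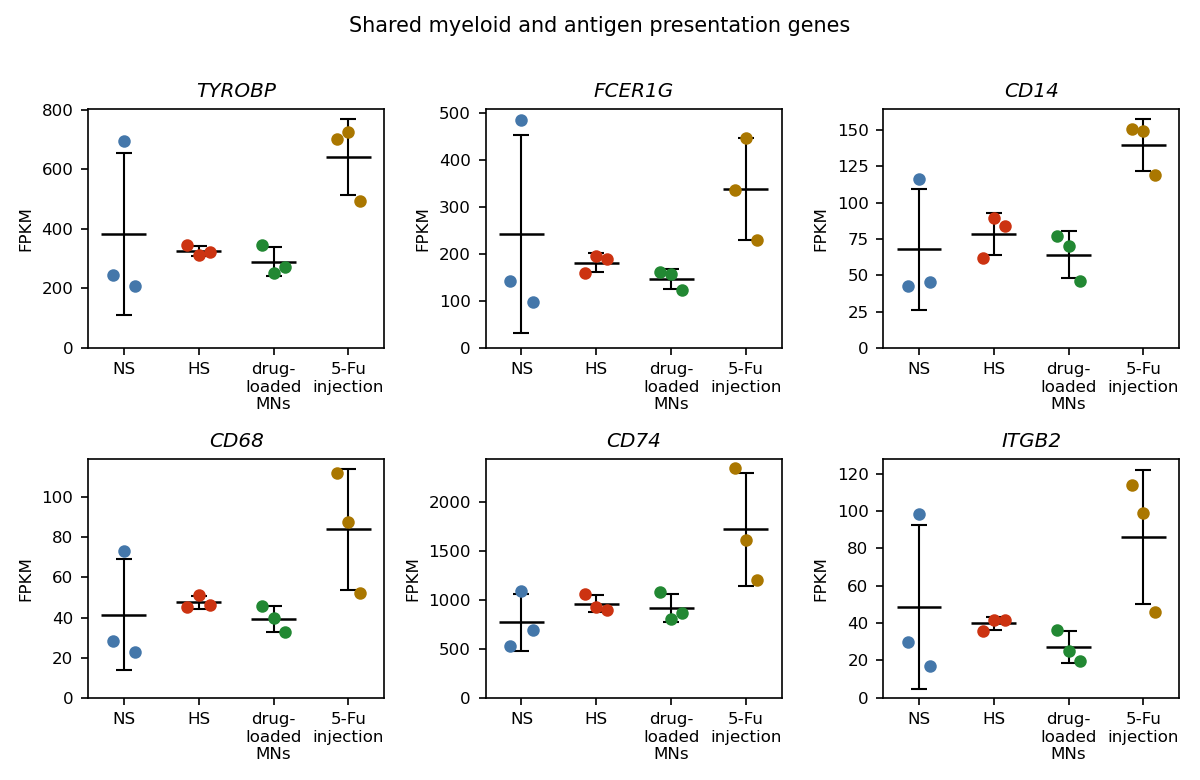
FPKM (vertical axis) of TYROBP, FCER1G, CD14, CD68, CD74 and ITGB2 in the 4 groups, with a point per sample, the mean as a line and the SD as bars (n = 3 per group). The 5-Fu injection points lie above all HS points in each panel, and NS replicate 2 lies within their range or close to it in each panel.

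The scavenger receptors went the other way. All 6 tested had a lower mean after 5-Fu injection than in HS, with log2 fold changes of -1.17 to -0.22 and a median of -0.69, and all 6 stayed negative under both rescalings. CD163 had 4.90, 11.1 and 4.77 FPKM after 5-Fu injection (log2 fold change -1.10, SE 0.40, limma adjusted p = 0.119), MRC1 had 4.67, 13.8 and 4.23 (-1.17, SE 0.46, adjusted p = 0.144) and VSIG4 had -0.92 (SE 0.37, adjusted p = 0.148). The second 5-Fu injection sample was the highest for CD163 and MRC1, and without it both were called. PLA2G7 (-0.52, SE 0.18, adjusted p = 0.108) lay below HS in every sample as well. The difference between the shared myeloid genes and the scavenger receptors in their response was not tested. Both sets were grouped after the values had been seen, so their opposite directions carry no test.

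Single 5-Fu injection samples stood out in several genes. The first held 488 FPKM of GPNMB, against 92.4 and 57.0 in the others, and 104 FPKM of MMP12, against 13.5 and 11.2. It also held 14.8 FPKM of CYBB against 4.78 and 1.11. The third held the lowest C1q levels of all samples, with 5.01 FPKM of C1QA, 2.11 of C1QB and 10.1 of C1QC. The second held 3.13 FPKM of MARCO and 32.2 of CSF3R, against 2.29 and 7.04 of CSF3R in the others. Against HS, CSF3R had a log2 fold change of 2.27 (SE 0.85, limma adjusted p = 0.127) with every sample above HS, and S100A8 had 1.85 (SE 2.29, adjusted p = 0.643).

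Markers of other leukocytes were also measured in the 5-Fu injection samples. Of the 5 pan-leukocyte markers tested 1 rose, against 0.512% of all genes called higher. It was CYTIP, a regulator of leukocyte adhesion (log2 fold change 1.58, limma adjusted p = 0.0424), and the median of the 5 was 1.07. The 6 T cell and NK cell markers found, of 14 listed, summed to 56.7, 6.30 and 9.17 FPKM after 5-Fu injection, 2.03 to 3.43 in HS, 3.59 to 6.64 after drug-loaded MNs and 3.11 to 16.3 in NS. The 9 B cell and plasma cell markers found, of 10 listed, summed to 1152, 67.7 and 82.0 FPKM after 5-Fu injection, 96.2 to 122 in HS, 60.7 to 423 after drug-loaded MNs and 6.23 to 34.2 in NS. The first 5-Fu injection sample was the highest of all for both lists, and in the B cell list the other 5-Fu injection samples lay below HS. Their part in the myeloid results was not tested.

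Among the mast cell genes CMA1 passed the test after 5-Fu injection, where 236 of all 13287 genes were called lower. CMA1 fell to 0.603, 1.76 and 0.874 FPKM (log2 fold change -2.88, SE 0.47, limma adjusted p = 0.0214), below all HS samples and within the NS range or close to it. MS4A2 lay below HS in every sample, but missed the threshold (-0.74, SE 0.29, adjusted p = 0.143), and KIT had -0.18 (SE 0.16, adjusted p = 0.497). The 6 other mast cell and basophil genes tested, CMA1 included, had a median of -0.20. The 10 found, of 14 listed, summed to 324 to 413 FPKM after 5-Fu injection and 147 to 198 in HS. The sum was 146 to 213 after drug-loaded MNs and 156 to 403 in NS, with 403 in NS replicate 2. Abundant genes weigh most in a sum, so its higher level after 5-Fu injection than in HS is not read as a rise of mast cell genes. The other macrophage genes HMOX1 and LGMN had -0.18 and -0.31 (limma adjusted p of 0.758 and 0.271). The 13 other antigen-presenting genes had a median of 0.96 with 0 called, where 0.512% of all genes were called higher.

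The treated groups were also compared with each other. None of the 36 genes was called between 5-Fu injection and drug-loaded MNs by limma, nor by limma voom, and 0 of all genes were called (0%). An unadjusted p under 0.05 was reached by 10 of the 36 and by 2009 of 13287 genes. Every drug-loaded MNs sample lay below every 5-Fu injection sample in 8 genes (22.2%, against 8.42% of all genes), which were TYROBP, FCER1G, CD14, CD68, CD74, ITGB2, PRAM1 and CSF3R. The count was 13 genes without the third 5-Fu injection sample (36.1%, against 11.8%). It was 11 without the first drug-loaded MNs sample (30.6%, against 12.2%) and 9 without the second (25.0%, against 12.1%). It stayed 8 (22.2%) without the third drug-loaded MNs sample, against 15.6% of all genes. Without the first or the second 5-Fu injection sample it also stayed 8 (22.2%), against 16.8% and 15.1%. MS4A2 was the gene with every drug-loaded MNs sample above (2.78%, against 8.64%), at a log2 fold change of 0.68 (SE 0.29, limma adjusted p = 0.316). That count was 4 without the third drug-loaded MNs sample (11.1%, against 15.7%) or without the second 5-Fu injection sample (11.1%, against 16.5%), and 2 without the first 5-Fu injection sample (5.56%, against 16.6%). The shared myeloid genes had a median of -1.08 and PRAM1 had -2.01 (SE 0.47, adjusted p = 0.246). The scavenger receptors had a median of 0.21 and VSIG4, the largest, had 0.65 (95% interval -0.16 to 1.46).

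Against normal skin, PLA2G7 was the gene of the 36 that remained higher in both treated groups. Its log2 fold change was 1.79 after drug-loaded MNs (SE 0.18, limma adjusted p = 0.0110), where 0.790% of all genes were called higher, and 1.64 after 5-Fu injection (SE 0.18, adjusted p = 0.0266), where 0.00753% were. The first call was lost without NS replicate 2 (adjusted p = 0.0895), and the second without NS replicate 1, without NS replicate 2 or without the second 5-Fu injection sample, with adjusted p up to 0.253. After drug-loaded MNs 7 genes had every sample above NS (19.4%, against 11.5%), namely CTSK, PLA2G7, VSIG4, SIGLEC1, CX3CR1, KIT and MS4A2. After 5-Fu injection 4 did (11.1%, against 9.60%), namely CD14, PLA2G7, MMP12 and CD74. Without NS replicate 2 these counts were 17 (47.2%, against 15.9%) and 16 (44.4%, against 15.9%), and without the third 5-Fu injection sample the latter was also 16 (44.4%, against 14.6%). Without the first or the second 5-Fu injection sample the latter was 5 (13.9%, against 17.5%) and 4 (11.1%, against 15.2%). Without NS replicate 1 or NS replicate 3 it was 5 (13.9%, against 12.0% and 15.4%). Without any other sample the drug-loaded MNs count was 7 to 10 (19.4% to 27.8%, against 14.9% to 17.8%). Among the named genes MMP12 had the largest log2 fold change, 2.83 after 5-Fu injection (SE 0.87, limma adjusted p = 0.217). MS4A2 had 1.24 after drug-loaded MNs (SE 0.29, limma adjusted p = 0.0890).

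Several of the genes lie side by side in the deposited table, and 10 of the 38 are on chromosome 13. CTSK and CTSS are 9.7 kb apart there, yet their log2 fold changes in HS versus NS were 1.65 and 0.30, and in 5-Fu injection versus HS -0.67 and 0.70. The 3 calgranulin genes lie within 30.1 kb, and the 3 C1q genes within 18.3 kb. ITGAX and ITGAM lie 18.9 kb apart on 1 of the unplaced scaffolds, which hold 6 of the 38 genes.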

How the data were processed

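Total RNA of 12 full-thickness rabbit ear samples was sequenced. The authors deposited 1 table of FPKM per gene and sample, with gene coordinates. The study's methods name a count model, and the values deposited are FPKM, so limma was used here. The aligner, counter and genome build are not given in the sources used here. FPKM times gene length fell on whole reads for 100% of values, which gave the reads behind each value, with no column left unmapped (0). The tolerance was 0.02 reads and widened in proportion to the reads for abundant genes, so the check is weak for the most abundant.

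Genes averaging 1 FPKM or more across the 12 samples were fitted as log2(FPKM + 1) with limma 3.58.1 in R 4.3.3, with the 4 groups in 1 fit sharing 1 estimate of spread and a mean-variance trend. P-values were adjusted by Benjamini-Hochberg over all 13287 genes, and a call needed an adjusted p below 0.05 with a log2 fold change beyond 1 in size. Values were handled with Python 3.11.15, pandas 2.3.3 and numpy 2.4.6. The procedure was tested on simulated reads with the same spread setting for every gene and no outlying samples. Its behaviour at a spread as wide as that of S100A8 was not tested. The 6 comparisons between 4 groups share samples, and p-values measure the spread between 3 rabbits per group. Intervals cover 95%.

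The genes and all lists were chosen with earlier results of these data known. Values per sample are given for every called gene and for the 3 genes of highest mean FPKM in each class, and for other genes where a count or a single sample turned on them, chosen after their values were seen. From other lists at most 4 called genes, or else the most abundant gene, could be named, and markers of other cells are given as sums. Alternatives were a pseudocount of 0.1, no filter, only the compared groups in the fit, a replicate block, rescaling to the same total, no trend, limma voom on the reads, and each sample left out. Rescaling to the reads on genes was chosen after seeing the data. A result of the other macrophage genes is not reported here.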

Additional observations from a re-analysis of the deposited data

How the results depend on the processing

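The number of genes called in HS versus NS was 5 and became 3 without the filter on low values and 1 to 5 when a sample was left out. The 1 was reached without NS replicate 1, where PLA2G7 alone was called. In 5-Fu injection versus HS the count of 1 became 0 without the filter, with only the compared groups in the fit and with the replicate block, and ranged from 0 to 2 when a sample was left out. In drug-loaded MNs versus NS it ranged from 0 to 1 when a sample was left out. In 5-Fu injection versus NS the count of 1 became 0 with only the compared groups in the fit, with the replicate block and without the mean-variance trend, and ranged from 0 to 1 when a sample was left out. It was 0 under every alternative in drug-loaded MNs versus HS and in drug-loaded MNs versus 5-Fu injection. The causes of these changes were not tested. No called gene changed sign under any alternative. Genes that were not called did. Rescaling to the reads on genes turned the sign of 5 of the 36 genes in HS versus NS (CTSS, CD14, AIF1, ITGB2 and KIT) and of 4 in drug-loaded MNs versus HS (CD74, GPNMB, MS4A2 and ITGAX), and rescaling to the same total turned 1, CYBB, in 5-Fu injection versus HS.

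Same-numbered samples are different rabbits, and the correlations of their deviations from the group means ran from -0.269 to 0.441, with 3 of 18 over 0.1. The highest was that of replicate 2 in drug-loaded MNs and HS. Whether same-numbered samples share more than a number was not tested. With the replicate block the count in HS versus NS was 5, gaining MRC1 and losing VSIG4. Of 336 list medians under alternatives, 322 moved by less than the spread between replicates and 14 moved by more. Depth limited CX3CR1 most among the called genes, with 6 to 12 reads in the NS samples.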

Other observations

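Ratios between neighbouring genes varied within samples. The ratio of S100A9 to S100A8, whose products pair, ran from 0.787 to 2.91 in FPKM over the 12 samples, and that of S100A12 to S100A8 from 0.0589 to 0.454. HS replicate 1 had the highest S100A12 ratio, while S100A8 there was 1653 FPKM. The chains of C1q assemble into a single protein, and they had a ratio of C1QB to C1QA of 0.325 to 1.34 and of C1QC to C1QA of 1.66 to 3.80. The lowest C1QB ratios were those of the first drug-loaded MNs sample and of the first 5-Fu injection sample (0.332).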
